A study of Mus musculus with 12 samples.

Results

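The genes described here are 40 macrophage and myeloid genes of the mouse, chosen by name and followed through the mammary glands of Ccnd1+/+ and Ccnd1-/- mice given placebo or estradiol. A gene counted as a member where the array platform's annotation gives its symbol, and its value was taken from whichever of its probe sets was brightest on average across the 12 arrays. All 40 listed genes were measured, among 18193 genes in all. They were sorted by role into 8 groups: Fc receptors and their signalling partners, the CSF1 axis with the lineage factor Spi1, pattern recognition receptors, scavenger and endocytic receptors, lysosomal and oxidase proteins, lipid handling, other leukocyte proteins, and alternative activation.

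The glands came from 12 virgin, ovariectomized C57BL/6 mice, described for the series as separate animals, and each total RNA was hybridised to an Affymetrix array of its own, giving 4 groups of 3. The groups were Ccnd1+/+ on placebo, Ccnd1+/+ on estradiol (E2), Ccnd1-/- on placebo and Ccnd1-/- on estradiol, called wildtype and knockout below. Estradiol came from pellets of 0.72 mg with a 60-day release, and treatment lasted 7 days in every group. How the Ccnd1-/- allele was made, the age of the mice, which gland was taken and whether its lymph node was removed are not given in the sources used here. The series title asks whether cyclin D1 determines estrogen signalling in the gland.

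Macrophages of the mammary gland lie in the stroma around the ducts and within the epithelium. They depend on the growth factor CSF1 and its receptor, and their identity rests on the transcription factor PU.1, the product of Spi1. In mice that lack CSF1 the ducts grow and branch poorly, and ovarian hormones are known to change how many macrophages the gland holds. Since the RNA came from whole glands, fewer cells of a type and less RNA per cell cannot be told apart in any value below.

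Values are log2 intensities, on which a difference of 1 is a doubling. Array medians lay between 5.73 and 5.80 and lower quartiles between 4.15 and 4.29. In 39 of the 40 members the level was above the array's lower quartile on all 12 arrays, and Arg1 was below it on 3. The labels were checked on Ccnd1, which lay between 8.50 and 10.82 in the 6 wildtype arrays and between 7.24 and 7.68 in the 6 knockout arrays. The epithelial keratin Krt8, a marker of the luminal cells a mammary gland should hold, lay between 8.44 and 12.96 on wildtype arrays and between 5.32 and 9.20 on knockout arrays.

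Patterns of 2 kinds among the arrays touch the members and come before the comparisons. First, wildtype estradiol array 1 stood apart. It was the highest of its group in 36 of the 40 members and the highest of all 12 arrays in 29. The median member lay 1.01 above the mean of the other 2 arrays of the group, against 0.02 over all genes, and 20 of the 40 lay more than 1 above, against 1.41% of all genes. The largest such gaps were in Clec4d (2.34), Ms4a7 (2.17), Fcgr1 (1.95), Tlr2 (1.95) and Pirb (1.92), and the exception below the other arrays was Arg1 (-1.29).

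Second, the arrays differed in lymphocyte genes. A score of 9 T cell and 9 B cell genes, as the mean log2 level centred over the 12 arrays, was 2.25, 1.64 and -1.88 in the wildtype placebo arrays and -1.95, 0.65 and -2.14 in the wildtype estradiol arrays. It was 1.82, -1.80 and 1.82 in the knockout placebo arrays and -2.05, 1.38 and 0.26 in the knockout estradiol arrays. Thus 5 arrays lay between -2.14 and -1.80 and 7 between 0.26 and 2.25, and every group held at least 1 of the low arrays. Comparisons without 1 or 2 of these arrays are given beside the results they change.

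**Figure D1:**
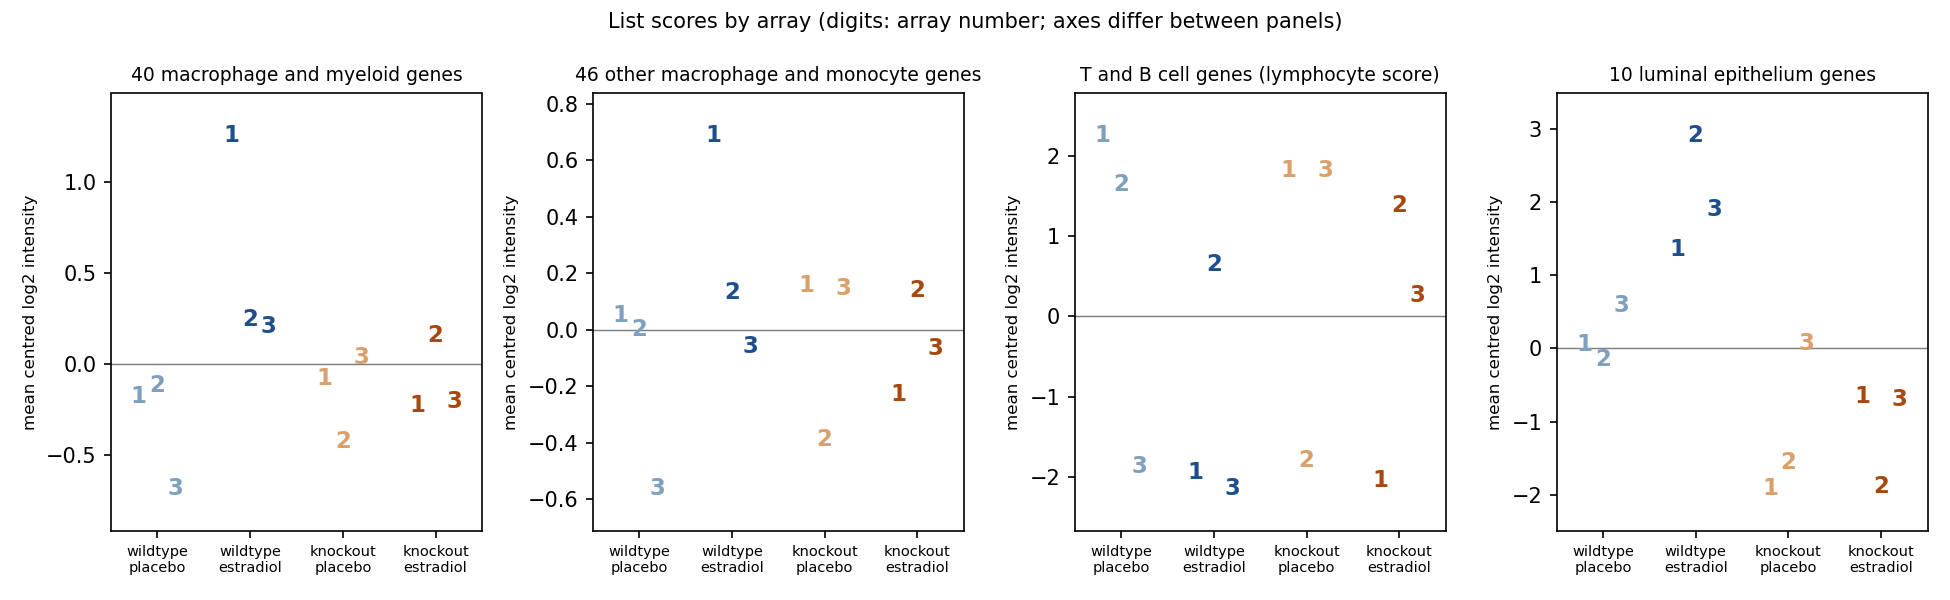
Mean log2 level, centred over the 12 arrays, of the 40 members, 46 other macrophage and monocyte genes, lymphocyte genes and luminal epithelial genes. Digits are array numbers within each of the 4 groups. The member score was 1.26 on wildtype estradiol array 1 and between -0.68 and 0.25 on the other 11.

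In wildtype glands 4 of the 40 members rose with estradiol and none fell: the immunoglobulin receptors Fcgr1 (log2 difference 3.00) and Fcgr3 (1.86), the membrane protein Ms4a6d (2.10) and the lipopolysaccharide co-receptor Cd14 (1.81). Of all genes 1.83% rose. At an unadjusted p under 0.05, 19 members were higher and none lower, against 10.2% of all genes higher. The placebo and estradiol arrays did not overlap in 17 members, all higher under estradiol, against 11.9% of all genes. The difference was above 0 in 34 members, against 52.0% of all genes, and the median was 0.80 against 0.01. The 4 calls depended on single arrays. None passed without wildtype placebo array 1 or without array 2, nor with only the wildtype arrays in the fit. Of all 18193 genes 107, 97 and 70 rose in these fits, against 333 with all arrays, so calls became fewer over all genes too. Leaving out placebo array 3 gave 7 members, against 5.03% of all genes. Without wildtype estradiol array 1 the median was 0.45 with 32 members above 0, and Fcgr1 (2.35, adjusted p = 0.0253) and Ms4a6d (1.53, adjusted p = 0.0283) passed, against 1.34% of all genes.

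**Figure D2:**
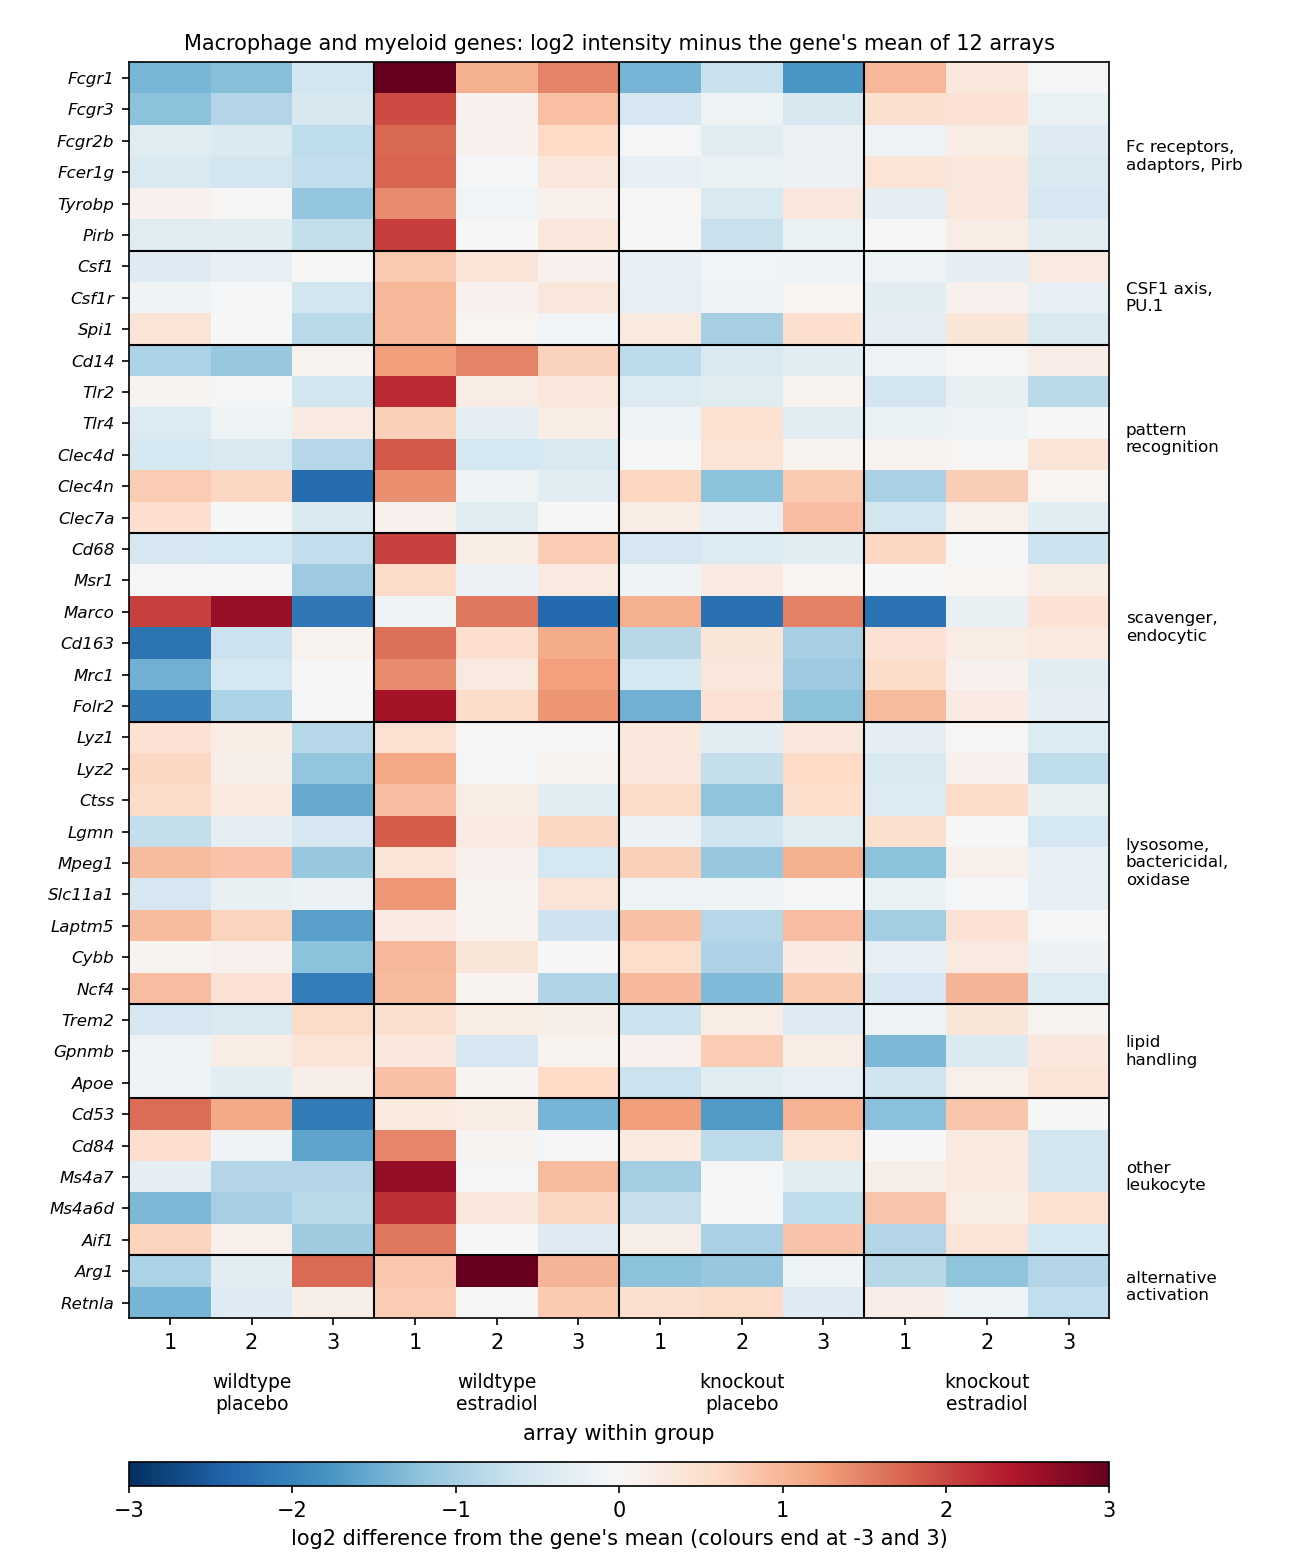
Log2 level of each member (rows, by role) on each of the 12 arrays (columns, by group), centred on the member's mean over the 12 arrays; the colour scale ends at 3 in either direction. Wildtype estradiol array 1 is high in most members, and a block of members including Marco, Cd53 and Ncf4 is low on wildtype placebo array 3 and knockout placebo array 2.

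In knockout glands no member passed, against 0.0989% of all genes. At an unadjusted p under 0.05, 2 members were higher and 1 lower, against 8.32% of all genes in either direction. The arrays did not overlap in 3 members, all higher under estradiol (Fcgr1, Ms4a6d and Cd14), against 8.37% of all genes. Differences above and below 0 were equally many, 20 each, and the median was -0.02. Without knockout estradiol array 1 the median was 0.09 with 25 members above 0, and without knockout placebo array 2 it was -0.06 with 19 above 0. Both estradiol comparisons have their own placebo arrays. The wildtype difference was the larger in 38 of the 40 members, with 19 higher in both genotypes, 14 higher in wildtype and lower in knockout, 6 lower in both, and Cybb higher in wildtype and at 0.00 in knockout.

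That contrast between the genotypes was tested as an interaction, the knockout difference minus the wildtype difference. No member passed it, and 0.011% of all genes did. At an unadjusted p under 0.05, 5 members had a lower difference in the knockout, against 4.94% of all genes. The interaction was below 0 in 38 members, against 49.9% of all genes, with a median of -0.91 against 0.00. Without wildtype estradiol array 1 the members' median was -0.49. The data therefore do not show a member whose response to estradiol differed between the genotypes at the threshold used.

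**Figure D3:**
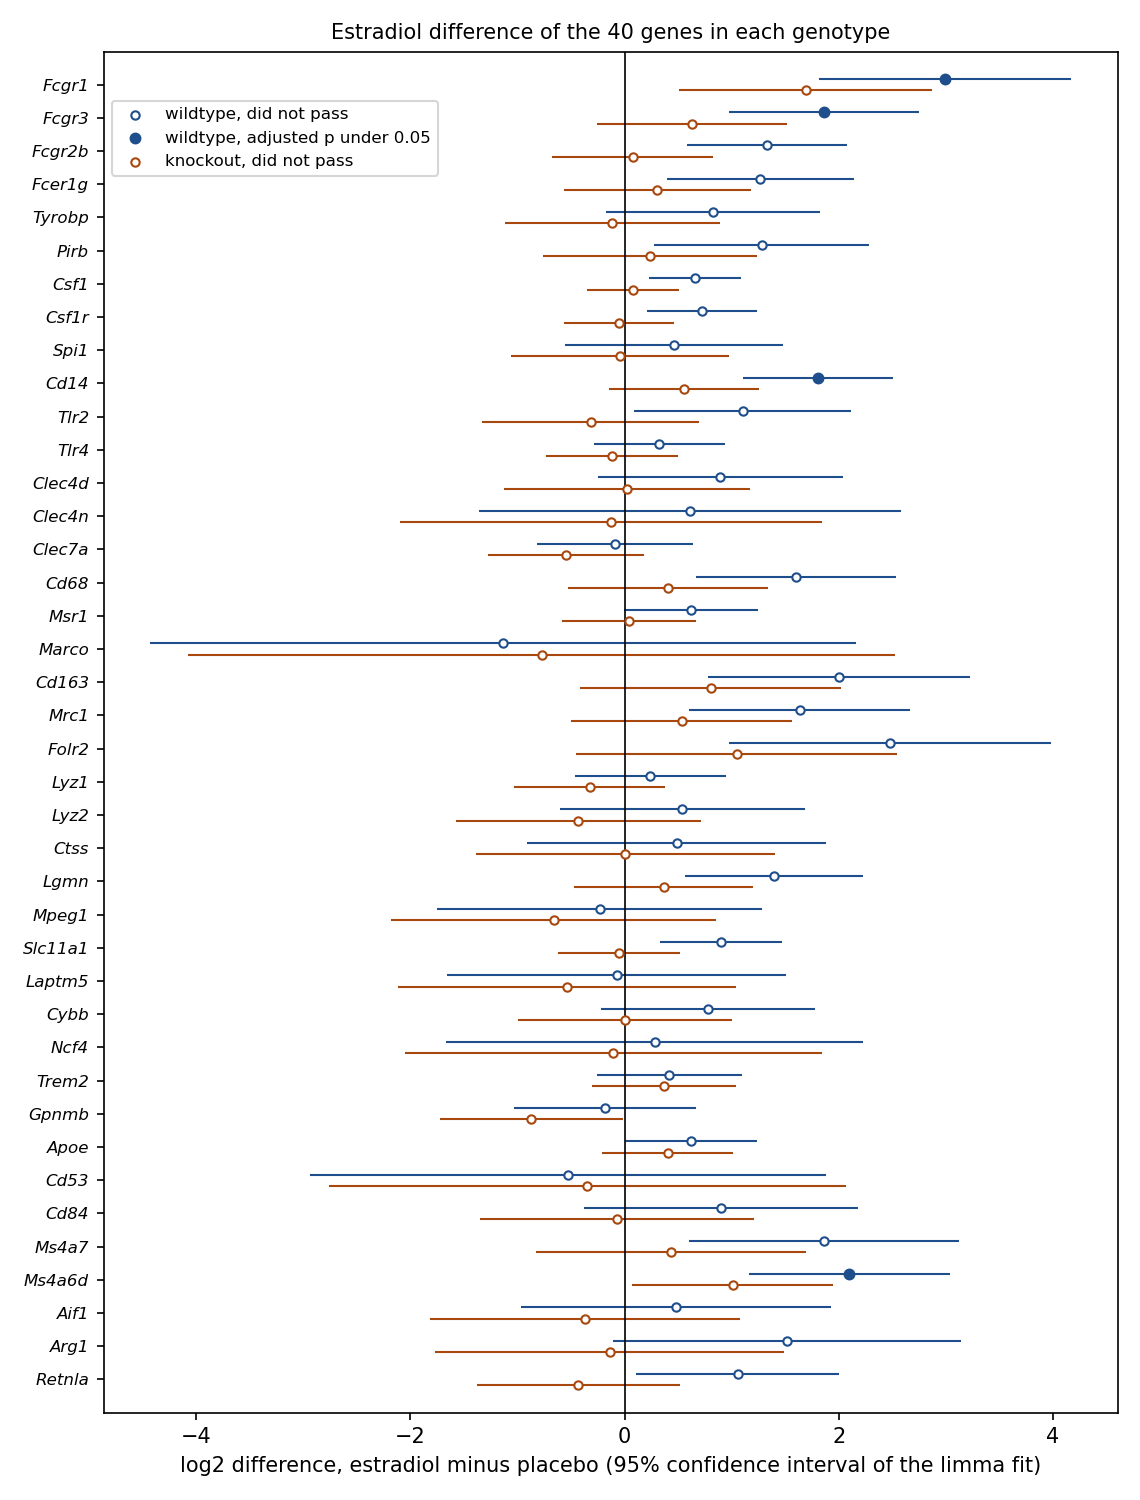
Log2 difference, estradiol minus placebo, of each member in wildtype (blue) and knockout (orange) glands, with 95% confidence intervals of the limma fit; filled points have an adjusted p under 0.05. The filled points are Fcgr1, Fcgr3, Cd14 and Ms4a6d in wildtype, and the wildtype point lies to the right of the knockout point in 38 of 40 members.

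Averaged over both genotypes, Fcgr1 (2.34), Ms4a6d (1.55) and Cd14 (1.18) rose with estradiol, with adjusted p-values of 0.0144, 0.0342 and 0.0317, against 1.43% of all genes. At an unadjusted p under 0.05, 16 members were higher and none lower, against 11.9% of all genes higher. The average difference was above 0 in 33 members, against 53% of all genes, with a median of 0.39 against 0.01. Only Fcgr1 passed when wildtype placebo array 1 or 2 was left out. The same held without knockout placebo array 1 or 3 and without any 1 knockout estradiol array. Of all genes 126 rose without either wildtype placebo array and 122 to 195 without these knockout arrays, against 261 with all arrays.

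Among the 6 Fc receptor and signalling genes, 2 rose in wildtype and none did in knockout. Fcgr1 encodes the high-affinity receptor for IgG. Its log2 level was 5.41, 5.50 and 6.24 in the wildtype placebo arrays and 10.02, 7.86 and 8.27 in the wildtype estradiol arrays. In the knockout it was 5.40, 6.11 and 5.04 on placebo and 7.78, 7.10 and 6.74 on estradiol. All 6 estradiol arrays lay above all 6 placebo arrays, and the wildtype estradiol arrays lay above those of the knockout. The difference was 3.00 (SE 0.53, 95% interval 1.82 to 4.17, adjusted p = 0.0205) in wildtype and 1.69 (SE 0.53, adjusted p = 0.435) in knockout. Its other probe set differed by 1.40 in wildtype (adjusted p = 0.158 over all probe sets tested).

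Fcgr3 encodes a low-affinity IgG receptor. Its level was 7.94, 8.30 and 8.71 on placebo and 11.14, 9.32 and 10.09 on estradiol in wildtype. The knockout arrays read 8.66, 9.02 and 8.69 on placebo and 9.67, 9.61 and 8.98 on estradiol. The wildtype groups did not overlap, while the lowest knockout estradiol array lay within its placebo group's range. The difference was 1.86 (SE 0.40, adjusted p = 0.0467) in wildtype and 0.63 (SE 0.40, adjusted p = 0.732) in knockout. Without wildtype estradiol array 1 the wildtype difference was 1.38 and no longer passed (adjusted p = 0.0798).

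The promoters of both called Fc receptor genes are shown because PU.1 is the lineage's own factor and a site for it was searched there. The windows run from 250 bases before to 50 after the gene's start, as RefSeq gives them for GRCm38.p6, both on the minus strand. Fcgr1 lies at chr3:96293920-96294219 and Fcgr3 at chr1:171059354-171059653. Capitals mark a match to the PU.1-type motif AGGAAGT or its reverse complement.
Fcgr1: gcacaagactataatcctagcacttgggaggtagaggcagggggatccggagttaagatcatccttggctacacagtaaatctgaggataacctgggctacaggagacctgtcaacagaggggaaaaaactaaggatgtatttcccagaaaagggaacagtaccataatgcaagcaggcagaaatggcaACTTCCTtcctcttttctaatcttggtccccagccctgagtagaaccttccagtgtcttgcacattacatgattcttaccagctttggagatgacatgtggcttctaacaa
Fcgr3: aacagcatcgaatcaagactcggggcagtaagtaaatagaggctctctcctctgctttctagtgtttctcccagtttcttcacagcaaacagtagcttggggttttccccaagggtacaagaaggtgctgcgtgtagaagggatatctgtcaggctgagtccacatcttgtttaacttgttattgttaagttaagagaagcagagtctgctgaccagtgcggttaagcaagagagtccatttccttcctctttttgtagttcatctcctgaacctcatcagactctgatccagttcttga
The Fcgr1 match begins 61 bases before the start on the opposite strand, and the Fcgr3 window holds none. RefSeq promoters were at hand for 30 members in 37 windows. The motif was present in 9 of these 30 genes (30.0%): Cd53, Ctss, Fcgr1, Folr2, Lyz1, Lyz2, Mrc1, Pirb and Retnla. It was present in 2886 of all 27025 genes with a promoter (10.7%). An estrogen response element, spelled as GGTCA, any 3 bases and TGACC, was in no member's window and in 20 of all genes (0.074%). These are matches of letters and say nothing about binding.

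The other members of this group did not pass in either genotype. Fcgr2b, the inhibitory IgG receptor, was at 9.12, 9.05 and 8.73 on placebo and 11.20, 9.61 and 10.07 on estradiol in wildtype. The knockout levels were 9.42, 9.16 and 9.30 on placebo and 9.32, 9.69 and 9.10 on estradiol. The wildtype groups did not overlap (difference 1.33, adjusted p = 0.0862) and the knockout groups did (0.08, adjusted p = 0.962), with an interaction of -1.25 (adjusted p = 0.691). Fcer1g, the signalling chain shared by Fc receptors, differed by 1.27 in wildtype (adjusted p = 0.156) and 0.31 in knockout. Tyrobp, the adaptor also called DAP12, was at 10.97, 10.89 and 9.69 on placebo and 12.26, 10.76 and 11.01 on estradiol in wildtype. Its knockout levels were 10.87, 10.40 and 11.19 on placebo and 10.59, 11.18 and 10.35 on estradiol. The groups overlapped in both genotypes, with differences of 0.83 and -0.12. Pirb, an inhibitory receptor, differed by 1.28 (adjusted p = 0.223) and 0.24. Fcgr3 and Fcgr2b are close relatives, as are Pirb and its activating paralogs, and hybridisation to a relative's transcript was not tested.

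**Figure D4:**
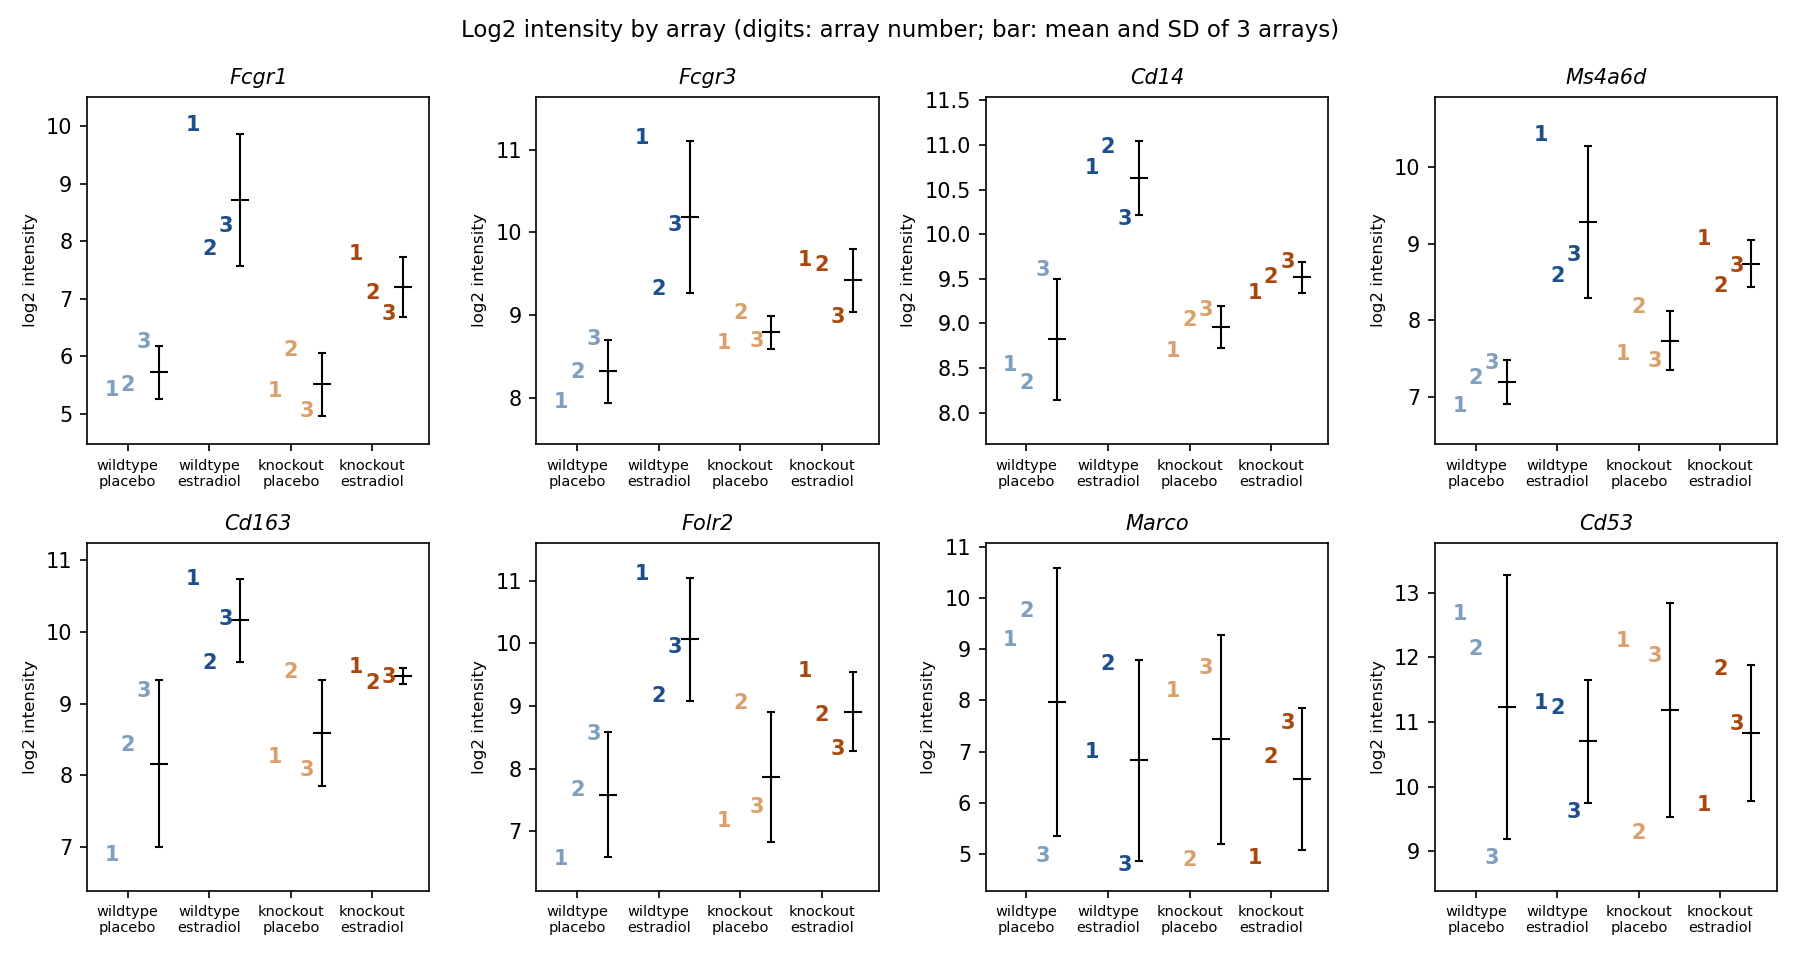
Log2 intensity of 8 members on each array by group, with digits for the array number and bars for the mean and SD of 3 arrays. In Fcgr1, Fcgr3, Cd14 and Ms4a6d the wildtype estradiol arrays lie above all wildtype placebo arrays, while Marco and Cd53 span several log2 units within a group.

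No member of the CSF1 axis passed. Csf1r, the CSF1 receptor, was at 12.14, 12.20 and 11.70 on placebo and 13.25, 12.38 and 12.59 on estradiol in wildtype. Among knockout arrays the level was 11.998, 12.15 and 12.32 on placebo and 11.91, 12.38 and 12.02 on estradiol. The wildtype groups did not overlap and the knockout groups did, with differences of 0.73 (adjusted p = 0.170) and -0.06 (adjusted p = 0.960). Its 2 other probe sets differed by 1.06 and 1.10 in wildtype. Csf1, the ligand, differed by 0.65 in wildtype (adjusted p = 0.131), with no overlap between the groups, and by 0.08 in knockout. Its other probe sets gave -0.02, 0.40 and 0.44 in wildtype. Spi1 differed by 0.46 and -0.05, with group SDs between 0.43 and 0.80.

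Of 6 pattern recognition receptors 1 rose in wildtype. Cd14 presents bacterial lipopolysaccharide to TLR4. Its level was 8.53, 8.34 and 9.59 on placebo and 10.74, 10.97 and 10.17 on estradiol in wildtype. In the knockout it was 8.70, 9.03 and 9.15 on placebo and 9.34, 9.52 and 9.69 on estradiol. The groups did not overlap in either genotype, and the wildtype estradiol arrays lay above the knockout estradiol arrays. Estradiol differences were 1.81 (SE 0.32, 95% interval 1.11 to 2.51, adjusted p = 0.0192) in wildtype and 0.56 (SE 0.32, adjusted p = 0.690) in knockout. Cd14 had the smallest interaction p of the 40 (-1.25, 95% interval -2.24 to -0.26, unadjusted p = 0.0183, adjusted p = 0.648). Unlike most members it was highest on wildtype estradiol array 2. Without array 1 its wildtype difference was 1.75 (adjusted p = 0.0622).

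Tlr2, a receptor for bacterial lipoproteins, was at 7.96, 7.85 and 7.34 on placebo and 10.12, 8.12 and 8.22 on estradiol in wildtype. The knockout arrays read 7.49, 7.54 and 7.99 on placebo and 7.31, 7.66 and 7.09 on estradiol. The wildtype difference was 1.10 (adjusted p = 0.314) with estradiol array 1, the one array far above the rest, and 0.45 without it. Tlr4, the receptor that signals for lipopolysaccharide, differed by 0.32 and -0.12. The C-type lectins Clec4n (dectin-2), a receptor for fungal mannans, and Clec7a (dectin-1), a receptor for beta-glucans, differed by 0.61 and -0.09 in wildtype and by -0.13 and -0.55 in knockout. Clec4d was at 7.75 on wildtype estradiol array 1 and between 5.04 and 6.32 on the other 11 arrays.

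None of the 6 scavenger and endocytic receptors passed. In 4 of them the wildtype groups did not overlap, all higher under estradiol, against 11.9% of all genes. Folr2, a folate receptor carried by resident tissue macrophages, was at 6.55, 7.66 and 8.55 on placebo and 11.11, 9.15 and 9.94 on estradiol in wildtype. Its knockout levels were 7.16, 9.05 and 7.38 on placebo and 9.56, 8.86 and 8.31 on estradiol. The differences were 2.48 (adjusted p = 0.104) and 1.05 (adjusted p = 0.734). Cd163, the haemoglobin-haptoglobin receptor, was at 6.89, 8.42 and 9.17 on placebo and 10.74, 9.57 and 10.18 on estradiol in wildtype. Among knockout arrays the level was 8.25, 9.44 and 8.07 on placebo and 9.51, 9.29 and 9.36 on estradiol. Its wildtype difference of 2.00 had an adjusted p of 0.107, and the knockout difference was 0.80.

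Mrc1, the mannose receptor CD206, was at 8.47, 9.38 and 9.89 on placebo and 11.32, 10.18 and 11.14 on estradiol in wildtype. The knockout levels were 9.37, 10.24 and 8.82 on placebo and 10.45, 10.03 and 9.56 on estradiol. It separated the wildtype groups (1.63, adjusted p = 0.119) and not those of the knockout (0.53). Cd68, a lysosomal glycoprotein of macrophages, lay between 7.34 and 7.58 on placebo and at 10.13, 8.31 and 8.85 on estradiol in wildtype (1.60, adjusted p = 0.0948), with a knockout difference of 0.41. Msr1, the type A scavenger receptor, differed by 0.62 and 0.04.

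Marco, a scavenger receptor of macrophages in spleen and lymph node, varied more within groups than between them. It was at 9.18, 9.74 and 4.97 on placebo and 7.00, 8.70 and 4.79 on estradiol in wildtype. In the knockout it was at 8.18, 4.89 and 8.64 on placebo and 4.92, 6.91 and 7.57 on estradiol. Its 4 lowest arrays were all among the 5 low in lymphocyte genes, and the fifth was at 7.00. The estradiol differences were -1.14 (SE 1.48, adjusted p = 0.809) and -0.77 (SE 1.48). Marco and Cd53 were singled out after their values were seen.

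**Figure D5:**
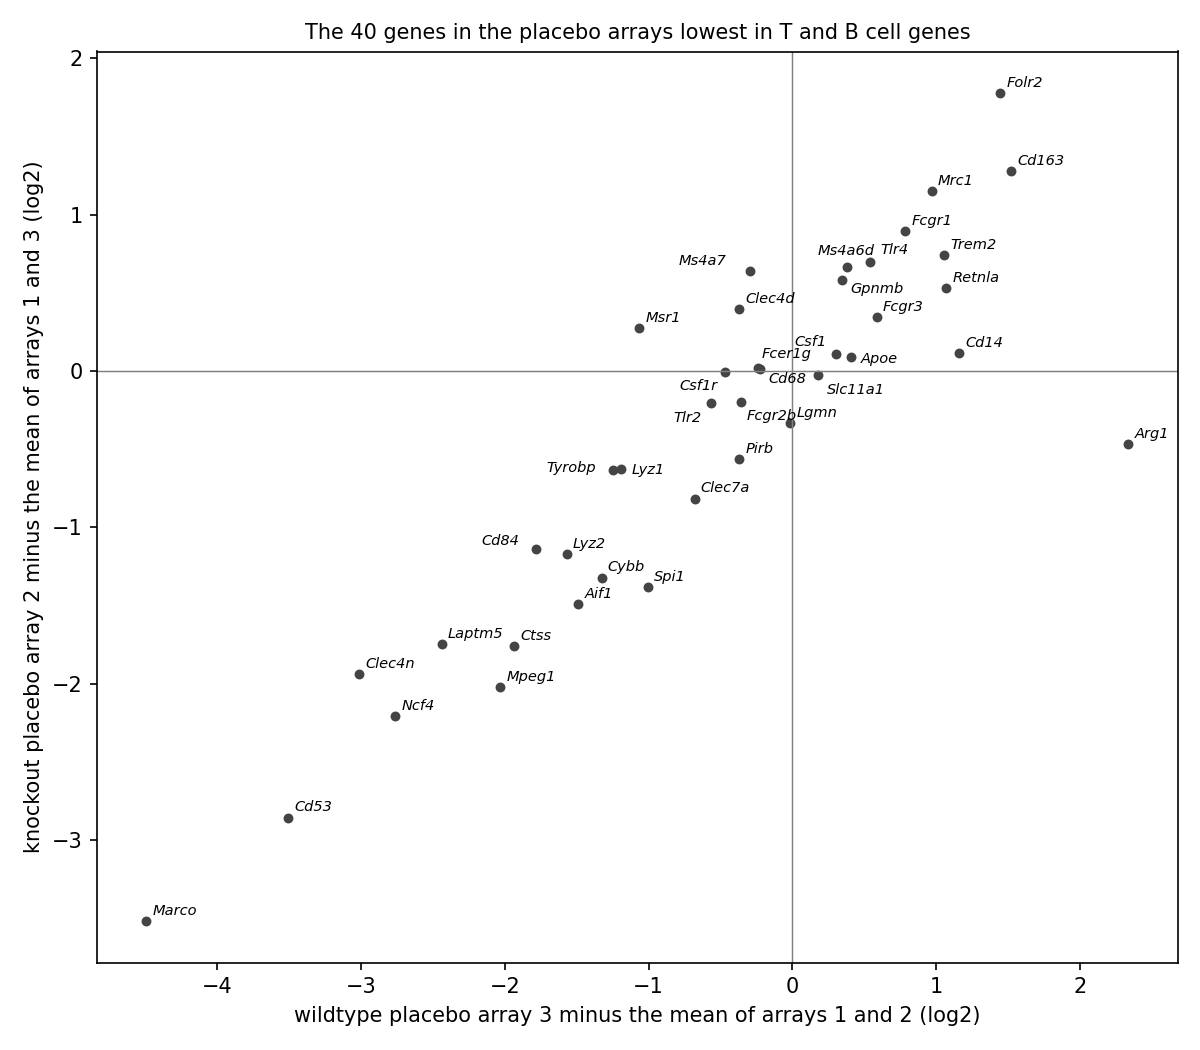
Each point is a member; the horizontal axis is wildtype placebo array 3 minus the mean of the other 2 wildtype placebo arrays, and the vertical axis is the same for knockout placebo array 2 (log2). Marco and Cd53 lie farthest at the lower left, Folr2 and Cd163 at the upper right.

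The same split ran through the list on placebo. Wildtype placebo array 3 and knockout placebo array 2, the placebo arrays low in lymphocyte genes, were both lower than the other arrays of their group by more than 1 in 12 of the 40 members (30.0%), against 4.97% of all genes. These 12 were Marco (-4.49 and -3.52), Cd53 (-3.50 and -2.86), Clec4n, Ncf4, Laptm5, Mpeg1, Ctss, Cd84, Lyz2, Aif1, Cybb and Spi1. Both arrays were higher by more than 0.5 in 7 members (17.5%), against 10.2% of all genes: Folr2 (1.44 and 1.78), Cd163 (1.52 and 1.28), Mrc1, Fcgr1, Trem2, Retnla and Tlr4. The 2 arrays lay on opposite sides in 7 members.

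With the lymphocyte score as a covariate in the fit, 5 members passed in wildtype, namely Fcgr1 (2.52), Fcgr3 (1.56), Cd14 (1.70), Ms4a6d (1.76) and Folr2 (1.73, adjusted p = 0.0388), against 3.31% of all genes. The difference was then above 0 in 39 of 40 members. Without wildtype placebo array 3 and knockout placebo array 2, 8 passed in wildtype: those 5 with Cd163 (2.51, adjusted p = 0.0123), Mrc1 (1.96, adjusted p = 0.0229) and Trem2, against 8.57% of all genes. Over both genotypes 8 then rose, against 12.8% of all genes. Cd53 (-1.50, adjusted p = 0.0491), Laptm5 and Mpeg1 fell, 3 of 40 members against 8.71% of all genes, a share near the background. Both settings were added after the data were seen, and in neither did a member pass in the knockout. The omission kept the estradiol arrays low in lymphocyte genes, so the lymphocyte score then differed more between placebo and estradiol. Cd163, Mrc1 and Trem2 were higher on both dropped arrays than on the others of their group, and Cd53, Laptm5 and Mpeg1 lower. Their calls under the omission therefore depend on which arrays were dropped.

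None of the 9 lysosomal, bactericidal and oxidase genes passed. Lyz1 and Lyz2 encode lysozyme. Lyz1 was at 13.46, 13.27 and 12.17 on placebo and 13.49, 13.06 and 13.07 on estradiol in wildtype, and at 13.34, 12.73 and 13.38 on placebo and 12.77, 13.06 and 12.64 on estradiol in knockout. The groups overlapped throughout, with differences of 0.24 and -0.33 for Lyz1 and 0.54 and -0.43 for Lyz2. The genes are near-identical neighbours, so their probe sets may share transcripts.

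Lgmn, the lysosomal protease legumain, was at 8.26, 8.67 and 8.45 on placebo and 10.78, 9.20 and 9.58 on estradiol in wildtype. The knockout arrays read 8.79, 8.37 and 8.61 on placebo and 9.45, 8.98 and 8.43 on estradiol. Only the wildtype groups were apart (1.40, adjusted p = 0.0996, against 0.37 in knockout). Slc11a1, the metal transporter NRAMP1 of phagosomes, was at 7.13, 7.42 and 7.46 on placebo and 8.95, 7.71 and 8.03 on estradiol in wildtype. It stayed between 7.40 and 7.58 on all 6 knockout arrays. The differences were 0.90 (adjusted p = 0.119) and -0.05, with an interaction of -0.95 (adjusted p = 0.691).

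The remaining genes of the group were all among the 12 that were low on wildtype placebo array 3 and knockout placebo array 2. Ctss, the protease cathepsin S, differed by 0.49 and 0.01. The NADPH oxidase subunits Cybb and Ncf4 differed by 0.78 and 0.28 in wildtype and by 0.00 and -0.11 in knockout. Mpeg1, the pore-forming perforin-2, differed by -0.23 and -0.66, and the lysosomal membrane protein Laptm5 by -0.08 and -0.54. Within groups the SD reached 1.61 for Ncf4 and 1.42 for Laptm5.

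Of the 3 lipid handling genes none passed. Apoe, the lipid carrier, was at 11.996, 11.79 and 12.30 on placebo and 13.02, 12.20 and 12.73 on estradiol in wildtype. Among knockout arrays the level was 11.49, 11.77 and 11.87 on placebo and 11.54, 12.29 and 12.51 on estradiol. The groups overlapped in both genotypes, with differences of 0.62 (adjusted p = 0.364) and 0.40. Gpnmb, a glycoprotein of lipid-laden macrophages, was at 8.29, 8.93 and 8.39 on placebo and 6.81, 7.72 and 8.48 on estradiol in knockout. In wildtype it was at 8.01, 8.39 and 8.54 on placebo and 8.48, 7.66 and 8.26 on estradiol. Its knockout difference of -0.87 was the lowest of the 40 and did not pass (adjusted p = 0.595). Trem2, a lipid-sensing receptor that signals through Tyrobp, differed by 0.42 and 0.37.

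Of the 5 other leukocyte genes, Ms4a6d rose in wildtype. It belongs to the MS4A family of tetraspan membrane proteins. Its level was 6.88, 7.25 and 7.44 on placebo and 10.42, 8.58 and 8.86 on estradiol in wildtype. In the knockout it was 7.56, 8.17 and 7.47 on placebo and 9.07, 8.45 and 8.70 on estradiol. All 6 estradiol arrays lay above all 6 placebo arrays. The differences were 2.10 (SE 0.42, 95% interval 1.16 to 3.04, adjusted p = 0.0385) in wildtype and 1.01 (SE 0.42, adjusted p = 0.566) in knockout. A second probe set of the gene gave 2.17 in wildtype and a dim further one 0.03. Ms4a7, of the same family, was at 7.75, 7.14 and 7.15 on placebo and 10.65, 7.99 and 8.98 on estradiol in wildtype (1.86, adjusted p = 0.148), with 0.43 in knockout.

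Cd53 is a tetraspanin carried by lymphocytes as well as myeloid cells. It was at 12.67, 12.12 and 8.89 on placebo and 11.29, 11.21 and 9.60 on estradiol in wildtype. The knockout arrays read 12.25, 9.28 and 12.02 on placebo and 9.72, 11.82 and 10.97 on estradiol. The spread within the placebo groups (SD 2.04 and 1.65, n = 3 each) exceeded the estradiol differences of -0.53 and -0.35. Its promoter at chr3:106790100-106790399, minus strand, is shown because, of the 3 members called lower when the 2 placebo arrays were left out, it is the one with a PU.1-type match, while the windows of Laptm5 and Mpeg1 hold none. The match, in capitals, begins at base 7 from the start.
Cd53: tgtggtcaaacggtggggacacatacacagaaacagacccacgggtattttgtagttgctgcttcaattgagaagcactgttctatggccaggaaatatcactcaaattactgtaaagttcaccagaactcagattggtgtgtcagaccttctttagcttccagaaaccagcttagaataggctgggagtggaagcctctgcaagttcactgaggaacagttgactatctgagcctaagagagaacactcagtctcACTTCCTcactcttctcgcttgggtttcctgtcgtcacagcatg
Cd84, a SLAM family receptor, differed by 0.90 and -0.07 in its brightest probe set and by -0.39 in wildtype in the other. Aif1, the calcium-binding protein IBA1, differed by 0.48 and -0.37.

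The 2 genes of alternative activation did not pass. Arg1, which breaks down arginine, was at 4.40, 5.04 and 7.06 on placebo and 6.16, 8.52 and 6.38 on estradiol in wildtype. Among knockout arrays the level was 4.13, 4.22 and 5.24 on placebo and 4.53, 4.15 and 4.48 on estradiol. It was the one member in which wildtype estradiol array 1 was the lowest of its group. Retnla, the secreted protein RELM-alpha, was at 10.76, 11.76 and 12.33 on placebo and 12.91, 12.17 and 12.94 on estradiol in wildtype. In the knockout it was at 12.63, 12.73 and 11.76 on placebo and 12.36, 12.03 and 11.42 on estradiol. Differences were 1.52 (adjusted p = 0.410) and -0.14 for Arg1, and 1.06 (adjusted p = 0.301) and -0.43 for Retnla.

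Between the genotypes on placebo no member passed, as did no gene of the 18193 (0%), and at an unadjusted p under 0.05 no member and 2.03% of all genes did. The knockout arrays lay wholly above the wildtype arrays in 5 members (Clec4d, Ms4a6d, Fcgr2b, Fcer1g and Slc11a1), against 4.9% of all genes. The difference was above 0 in 32 members, against 54.3% of all genes, with a median of 0.20 against 0.02. Without wildtype placebo array 3 and knockout placebo array 2 it was above 0 in 29, with a median of 0.14. The smallest p-values belonged to Retnla (0.75), Msr1 (0.45) and Clec4d (0.77), each with an adjusted p of 1. Msr1 was at 6.86, 6.90 and 5.82 in wildtype and 6.80, 7.16 and 6.97 in knockout on placebo. Clec4d was at 5.38, 5.45 and 5.04 in wildtype and 5.84, 6.32 and 6.02 in knockout. On estradiol Msr1 was at 7.50, 6.75 and 7.19 in wildtype and 6.94, 6.98 and 7.15 in knockout. Clec4d was then at 7.75, 5.37 and 5.44 in wildtype and 6.01, 5.93 and 6.30 in knockout.

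Under estradiol no member differed between the genotypes at the threshold, against 1.12% of all genes. At an unadjusted p under 0.05, 10 members were lower in the knockout, against 8.83% of all genes. The knockout arrays lay wholly below the wildtype arrays in 8 members, against 11.8%. The difference was below 0 in 39 members, against 44.8% of all genes, with a median of -0.59 against 0.03. Without wildtype estradiol array 1 it was below 0 in 32, with a median of -0.27. It was below 0 in 40 without wildtype estradiol array 3 (median -0.74) and in 35 without knockout estradiol array 1 (median -0.56). The smallest p-values were those of Arg1 (-2.63, adjusted p = 0.137), Cd14 (-1.11, adjusted p = 0.145) and Tlr2 (-1.47, adjusted p = 0.187). Without wildtype estradiol array 1 the differences were -3.06 for Arg1, -1.06 for Cd14 and -0.82 for Tlr2. Leaving out the same array took Fcgr1 from -1.51 to -0.86 and Ms4a6d from -0.55 to 0.02.

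Further macrophage and monocyte genes, from a list of 50 of which 46 were measured, gave 2 rises in wildtype under estradiol and none elsewhere except in the average. These were the lectin Clec10a (2.40, adjusted p = 0.0257) and the transcription factor Maf (1.28, adjusted p = 0.0368). Over both genotypes Clec10a and Maf rose by 1.59 (adjusted p = 0.0368) and 0.90 (adjusted p = 0.0384). Of all genes 1.83% rose in wildtype and 1.43% in the average. Within the list the wildtype difference was above 0 in 27 genes and below 0 in 19, against 52% of all genes above 0. The median was 0.16, against 0.01 over all genes. The 19 below 0, none of which passed, included Ptprc and Irf8. Group means on placebo and estradiol were 11.54 and 10.41 for Ptprc and 10.03 and 9.28 for Irf8. The complement genes C1qa (1.85, adjusted p = 0.0530), C1qb (1.47) and C1qc (1.97), the complement receptor C3ar1 (2.85, adjusted p = 0.0642), the lectin Mgl2 (1.66) and the efferocytosis receptor Mertk (0.83) had the next smallest p-values. Adgre1, a surface receptor widely used as a macrophage marker, was at 7.14, 7.65 and 8.59 on placebo and 11.59, 8.81 and 9.21 on estradiol in wildtype (2.08, adjusted p = 0.159). Its knockout levels were 7.64, 8.44 and 7.52 on placebo and 8.71, 8.22 and 8.10 on estradiol.

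In wildtype under estradiol all 9 T cell, 9 B cell, 5 NK cell and 9 dendritic cell genes measured had differences below 0. None passed, and 48% of all genes were below 0. The lymphocyte score was low on wildtype estradiol arrays 1 and 3 and on wildtype placebo array 3. Of 12 neutrophil genes Lcn2 alone rose (2.87, adjusted p = 0.0399), a gene that epithelial cells also express. The neutrophil differences were above 0 in 5 genes and below 0 in 7, with a median of -0.095. Among those below 0, S100a8 and S100a9 differed by -1.52 and -1.30. The luminal score of 10 genes was 0.06, -0.15 and 0.58 in wildtype placebo arrays and 1.35, 2.904 and 1.90 in wildtype estradiol arrays. In the knockout it was -1.91, -1.56 and 0.07 on placebo and -0.66, -1.88 and -0.70 on estradiol, and 1 of its genes, Prom1, rose in wildtype (2.07, adjusted p = 0.0139). Wildtype estradiol array 1, the highest of the 12 arrays in 29 members, had the lowest luminal score of its group. Array 2 of that group had the highest luminal score and was the highest of the 12 in 2 members, Cd14 and Arg1. The part of the luminal cells in the members' differences was not tested.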

How the data were processed

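RNA from mammary glands was measured on 12 Affymetrix arrays in 4 groups of 3. The deposited values are log2 intensities per probe set, made by the authors with RMA and limma 2.9.16, per the submitters' processing notes, which give no order or further settings. RMA normalises all arrays together, so differences are relative to the other genes. Arrays have no sequencing depth, and 3 arrays a group limit the precision. No detection calls were used.

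In the platform annotation 34945 probe sets carry 1 gene, 932 carry more than 1 and 9160 carry no gene, and 64 are controls. For each of the 18193 genes the brightest probe set on average was used. The 40 members, their role groups and the marker lists were chosen with earlier results of these data known. One limma fit (3.58.1, R 4.3.3) of 4 group means with eBayes gave 6 comparisons, two-sided, with Benjamini-Hochberg adjustment over all genes and a threshold of 0.05. It was tested on simulated data with known changes. Estradiol differences have placebo subtracted, and genotype differences wildtype. Counts, medians and promoter matches of the members are descriptions with no test.

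Named with every array's value were the members past the threshold, the 3 with the smallest p where fewer than 3 passed, and in each role group the one with the highest mean and the one with the largest difference. Of other lists, members past the threshold or the 2 with the smallest p were named, and up to 8 of the other macrophage genes. Adgre1, Ptprc, Irf8, S100a8, S100a9 and Krt8 were named outside this rule. Promoters came from RefSeq's GRCm38.p6 tables, and comparisons of protein sequence were not made. Alternatives changed the probe set, the filter on dim genes, the scaling, the variance prior, array weights, a block for the replicate number and the arrays in the fit. A lymphocyte covariate and the omission of 2 placebo arrays were added after the data were seen.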

Additional observations from a re-analysis of the deposited data

Results flagged for a closer look

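Slc11a1, the phagosomal metal transporter, lay higher in the knockout than in the wildtype on placebo, by 0.19 with no overlap between the arrays (7.48, 7.50 and 7.58 against 7.13, 7.42 and 7.46). Under estradiol it lay lower in the knockout, by -0.76, again with no overlap (7.43, 7.57 and 7.40 against 8.95, 7.71 and 8.03). The opposite order of the arrays under the 2 treatments drew attention to it. The interaction, which tests that difference, was -0.95 with an adjusted p of 0.691, so it did not pass.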

How the results depend on the processing

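Every median difference of the members kept its sign under the alternatives in the wildtype, genotype and average comparisons and in the interaction, while in the knockout it lay near 0 on either side. The number of members past the threshold was less stable. In wildtype under estradiol 4 passed, 2 after quantile scaling, 2 after median scaling (which moved the median of all genes to -0.12), 0 with only the arrays compared in the fit, and 21 with array weights, whose estimation stopped before its tolerance was met and under which 4702 genes passed in all. Added after the data were seen, the omission of wildtype placebo array 3 and knockout placebo array 2 gave 8 and the lymphocyte covariate 5. Leaving out 1 array at a time gave 0 to 7, with 0 without wildtype placebo array 1 or 2, 7 without array 3, 2 without wildtype estradiol array 1, 1 without array 3, and 2 without any 1 of the knockout arrays other than placebo array 2. Over both genotypes 3 members passed, 17 with array weights and 11 without the 2 placebo arrays. Leaving out 1 array gave 1 to 6, with 6 without wildtype placebo array 3. It was 1 without wildtype placebo array 1 or 2 or any 1 of the same knockout arrays. Over all genes 261 rose and 26 fell there. With array weights 4835 passed, without the 2 placebo arrays 3913, and leaving out 1 array 127 to 1400. Under estradiol between the genotypes no member passed. Leaving out 1 array gave 0 to 1, which was Cd14 without wildtype placebo array 3, and without both placebo arrays it was also 1. Of all genes 204 passed, 0 to 315 leaving out 1 array, and 472 without both. The median interaction ranged from -1.08 to -0.49 leaving out 1 array, the latter without wildtype estradiol array 1. The replicate numbers in the labels did not pair the arrays: residuals of arrays with the same number correlated at -0.74 to 0.66 over 18 pairs. With the replicate number as a block, 0 members passed in wildtype and 1 over both genotypes, while 158 and 134 of all genes passed. Other probe sets gave a smaller difference for Fcgr1 (1.40 in wildtype, 0.91 over both) and near 0 for the dim one of Ms4a6d (0.03 and 0.04). Calls over all genes moved as well in wildtype under estradiol, where 333 rose and 9 fell. After quantile scaling 237 passed, after median scaling 186, and 71 with only the arrays compared. Leaving out 1 array gave 100 to 1146, the latter without wildtype placebo array 3. Omitting the 2 placebo arrays gave 2154 and the lymphocyte covariate 689. The causes were not tested.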

Other observations

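In wildtype glands under estradiol 3 of 8 basal epithelial and 2 of 10 fibroblast genes rose, against 1.83% of all genes. All 8 basal epithelial genes measured were above 0, and Oxtr, the oxytocin receptor (4.46), the smooth muscle proteins Cnn1 (1.97) and Acta2 (1.59) passed, with adjusted p-values of 0.00837, 0.0177 and 0.00522. All 10 fibroblast genes were above 0, and Pdgfra (1.72, adjusted p = 0.00486) and Fap (1.61, adjusted p = 0.0291) passed. All 8 mast cell genes were above 0 and none passed, the smallest p-values belonging to the proteases Cma1 (1.31, adjusted p = 0.265) and Tpsb2 (0.76, adjusted p = 0.268). All 8 mast cell genes were below 0 in the interaction as well, again with none passing. So were all 10 luminal, 8 basal epithelial and 10 fibroblast genes, with none passing. Their medians were -2.075, -1.27 and -0.98, against -0.91 in the 40 members. The interaction was above 0 in all 9 T cell, 8 of 9 B cell, all 5 brown adipocyte and all 8 muscle genes.

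The lymphoid and dendritic lists held Cd8a (-1.62), Cd4 (-0.96), Cd79a (-2.27), Fcer2a (-2.26), Ncr1 (-0.24), Prf1 (-0.68), Zbtb46 (-0.32) and Siglech (-0.68) as the genes with the smallest p-values in wildtype, with adjusted p-values of 0.378 or more. No endothelial, adipocyte or muscle gene passed in that comparison: of 8 endothelial genes 3 were above 0, of 6 white adipocyte genes 5, of 5 brown adipocyte genes none and of 8 muscle genes none. The muscle score ranged from -3.46 to 3.39 over the 12 arrays, the widest range among the lists scored.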
